A study of Caenorhabditis elegans with 4 samples.

Results

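The sites described here are the places on Caenorhabditis elegans chromosome IV where tagged DVE-1 was found on chromatin: all 708 peaks on IV in the deposited combined list of 3702 peaks. They were taken by their chromosome alone, so no measured value entered the choice. The assay was ChIP-seq, in which chromatin bound by a protein is precipitated and its DNA sequenced, done on L4 hermaphrodites of strain OP398, grown at 20 °C on E. coli HB101. All 4 libraries (2 ChIP, 2 input) came from worms with the unc-119(ed3) mutation on III. They also carried wgIs398, a transgene brought in by bombardment that holds the construct dve-1::TY1EGFPFLAG together with a rescuing unc-119(+) and so adds GFP and 3xFlag tags to DVE-1. Antibodies against GFP precipitated the tagged protein. All libraries share the transgene and the unc-119 mutation, so no untagged strain gives a background here, and the insertion site of the transgene is unknown here. The labels do not say that the 2 ChIP replicates came from separate cultures.

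DVE-1 is a homeodomain protein related to the SATB chromatin organisers of vertebrates. It is best known from the mitochondrial unfolded protein response, in which stressed mitochondria signal to the nucleus and DVE-1 gathers in intestinal nuclei to help turn on chaperone genes. Autosomes of C. elegans are divided into a central region, where genes with basic cell functions and operons are frequent and crossovers rare, and 2 arms, which are richer in repeats, repressive histone marks and crossovers. Chromosome IV is also known as the main home of the piRNA (21U-RNA) genes of the germline. In the RefSeq gene table used here (assembly WBcel235), IV held 14714 of 15363 piRNA genes (95.8%) and 3281 of 19971 protein-coding genes.

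A peak is an interval that the authors' caller, PeakSeq, reported as enriched, with a q-value that falls as the enrichment gets stronger. Positions are in WormBase WS180, start and end included. Peak lists hold no read counts, so depth is unknown, and a q-value is used only to rank peaks within 1 list. On IV the list of replicate 1 held 325 peaks, that of replicate 2 held 436, and the combined list 708. The combined peaks ran from 51090 to 17474378, covered 3.09% of the chromosome and made up 19.1% of the combined list, while IV made up 17.5% of the summed chromosome length. Widths on IV went from 208 to 6044 bp, with a median of 518.5 bp. The q-values went from 3.42e-131 to 2.35e-04, with a median of 4.41e-08. Genes are not assigned to the sites and no sequence is shown, because the gene table is in another assembly and no genome of WS180 was used here.

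The strongest site of IV lay near its left tip, from 291401 to 297444, and was also the widest peak of the chromosome at 6044 bp. Its q-value was 3.42e-131 in the combined list, where it ranked 11. Each replicate had it as a single peak and as the strongest of IV, 5642 bp wide in replicate 1 (q = 1.44e-65) and 5876 bp wide in replicate 2 (q = 1.16e-75). The next site lay at the middle of the chromosome, from 8527307 to 8531697 (4391 bp, q = 1.33e-104), and was split into 2 peaks in replicate 1 and 3 in replicate 2. The site ranked 3 was narrower, from 14032514 to 14034740 (2227 bp, q = 8.53e-100), and was 1 peak in both replicates, ranked 2 and 3 on IV. A site close to the right tip, from 17277060 to 17281974, ranked 4 (4915 bp, q = 1.12e-84) and was split into 2 peaks in each replicate. These 4 sites were therefore spread over the whole length of IV, at 1.68%, 48.8%, 80.3% and 98.9% of the way from the left end.

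The remaining 6 of the 10 strongest sites were again spread over both arms and the centre. On the left arm were the sites from 2709385 to 2711758 (2374 bp, q = 9.01e-84) and from 2601328 to 2605142 (3815 bp, q = 1.34e-65), which ranked 5 and 9. The right arm had a site ranked 6, from 16166445 to 16171652 (5208 bp, q = 1.13e-80). In the centre lay the sites from 4469591 to 4474448 (4858 bp, q = 2.25e-72) and from 9438544 to 9442818 (4275 bp, q = 4.51e-67), ranked 7 and 8. The list of 10 closed with a narrow peak, from 4749575 to 4750262 (688 bp, q = 5.77e-59). Of the 10 strongest, 3 lay in the left 25% of the chromosome, 4 in the central 50% and 3 in the right 25%. All 10 were found in both replicates.

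Some of the sites were called very differently in the replicates. The site from 4469591 to 4474448 was 3 peaks in replicate 1, the best of which ranked 100 on IV, and 2 peaks in replicate 2. The first of those 2, from 4467920 to 4471946, was 4027 bp wide and ranked 10. It also overlapped the neighbouring combined peak from 4467428 to 4469321 (rank 34), so its width and rank are not those of this site alone. The site from 9438544 to 9442818 was a single peak of 4079 bp in replicate 2 and 2 peaks of 972 and 1961 bp in replicate 1. The narrow site from 4749575 to 4750262, in contrast, was called as 350 bp in replicate 1 and 418 bp in replicate 2, and ranked 4 and 6 on IV there.

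Width and strength went together only in part. Across the 708 peaks, width and −log10 q had a Spearman rho of 0.518, given as a description, since the caller computes both from the same reads. Of the 10 widest peaks, 6 were among the 10 strongest. The widest peak outside that group, from 7048638 to 7054057 (5420 bp, q = 1.88e-40), ranked 23 and was broken into 3 peaks in replicate 1 and 2 in replicate 2. The peak from 14609719 to 14614686 was 4968 bp wide and ranked 19, and the peak from 4404740 to 4408783 was 4044 bp wide and ranked 27. Of the 10 widest peaks the one with the weakest q-value, from 5658912 to 5663842 (4931 bp, q = 3.05e-19), ranked 100, and both replicates called only its left part, as peaks of 897 and 893 bp. Peaks no wider than 1000 bp made up 44 of the 100 strongest, a lower share than the 586 of all 708 peaks on IV. Besides the site at 4749575, the strongest of these were at 654667 to 655400 (734 bp, q = 5.32e-57) and 14594025 to 14594825 (801 bp, q = 1.19e-55), which were singled out after their values were seen. Peaks over 4000 bp numbered 10 of 708 on IV, and together they held 9.10% of all covered bases of the chromosome. Of these, 6 lay in the centre, which held 63.0% of all peaks on IV. Peaks over 4000 bp numbered 7 of 589 on II, 4 of 703 on III, 12 of 730 on V and 5 of 451 on X.

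**Figure D1:**
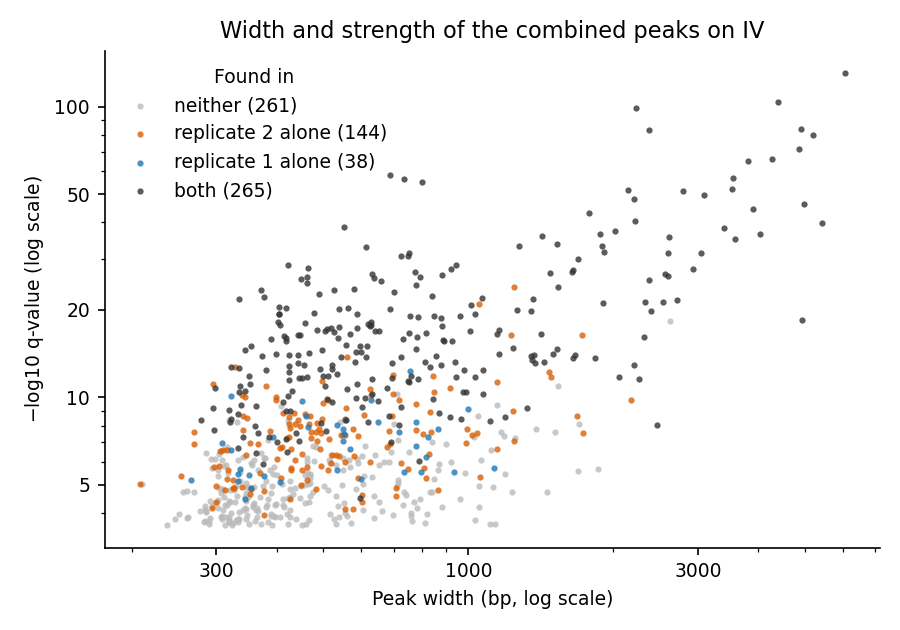
Width in bp (x, log scale) against −log10 q-value (y, log scale) for the 708 combined peaks on IV, coloured by the replicates whose peaks they overlap. Most of the 265 peaks found in both replicates lie in the upper part and most of the 261 found in neither at the bottom. The classes overlap, with the former reaching down to q = 3.15e-05 and the latter up to 4.21e-19. Peaks over 4000 bp reach from q = 3.05e-19 to 3.42e-131.

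The density of sites rose from the left end to a plateau in the centre and then fell to its lowest in the right arm, before a rise at the right tip. Counted by midpoints in windows of 1 Mb from the left, the first 4 windows held 32, 32, 38 and 38 combined peaks. The next 3 held 49, 38 and 49. The 5 windows from 7000001 to 12000000 then held 54, 59, 57, 54 and 61, the last of these being the densest window of IV. After it the count dropped to 36 in the window from 12000001 to 13000000 and went on to 31, 26, 17 and 18. The rest of the chromosome, from 17000001 to 17474378, makes up no full window. Though shorter, it held 19 combined peaks, more than the 17 or 18 before it, and 11 in each replicate. The density thus rose again at the right tip. Both replicates had their densest window in the same place, from 11000001 to 12000000, with 28 and 40 peaks, and their emptiest from 15000001 to 16000000, with 7 and 8. Over the 17 full windows the counts of the replicates had a Spearman rho of 0.945. Windows of 1 chromosome share their libraries, so this is a description. The variance of the combined counts was 4.76 times their mean on IV, against 6.90 on II, 2.88 on III, 7.99 on V and 3.35 on X. On IV this ratio was 2.32 in replicate 1 and 3.33 in replicate 2. For the same relative unevenness the ratio is larger where the mean count is larger. The means were 40.5 on IV, 38.4 on II, 50.9 on III, 35.1 on V and 25.4 on X. In the replicate lists of IV they were 18.5 and 25. The ratios therefore do not rank chromosomes or lists by unevenness.

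**Figure D2:**
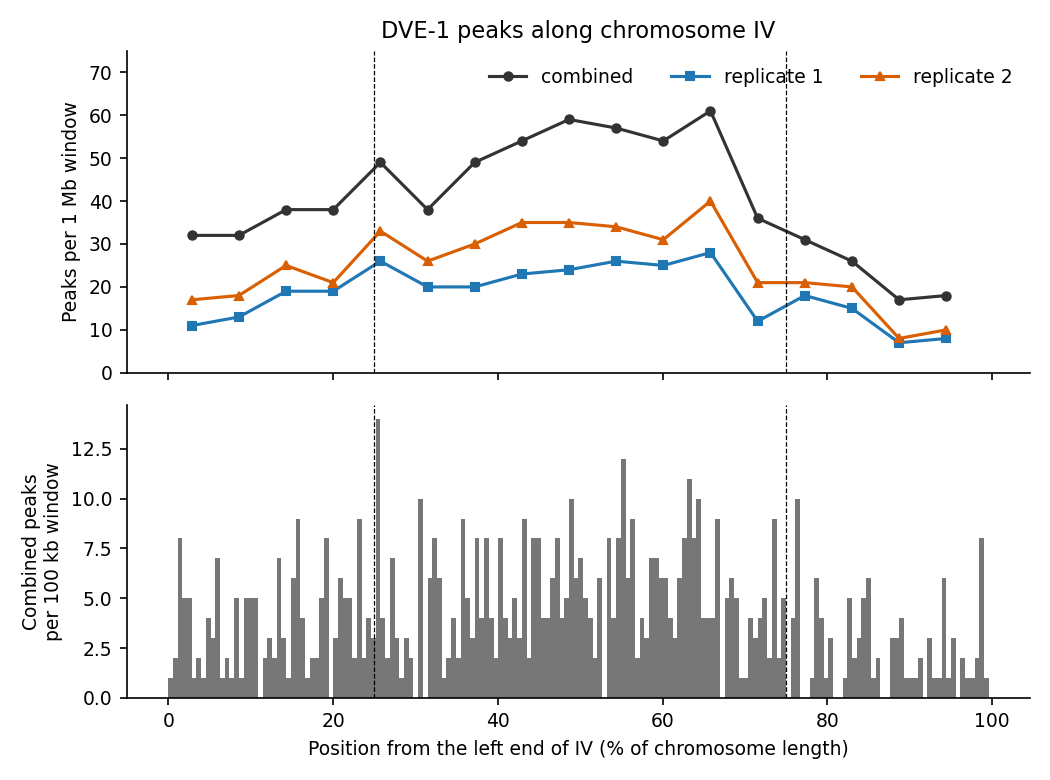
Peaks per full 1 Mb window in the 3 lists (top) and combined peaks per 100 kb window (bottom) against position as a percent of the length of IV; dashed lines mark 25% and 75%. Counts climb to 61 in the twelfth window and fall to 17 and 18 in the right arm, and the replicate lists follow the same course.

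A window with few peaks could still hold a very strong one. The windows named here are examples, and the link between count and best peak was not measured over all windows. The strongest peak of each 1 Mb window was found in both replicates in all 18 windows, the short last one included. All 18 ranked 82 or better on IV, where 98 of the 100 strongest peaks were found in both replicates. The count is therefore near that of strong peaks on IV in general and is no result about the windows. In the sparsest window, from 15000001 to 16000000, only 8.19 kb were covered and the strongest peak, from 15471381 to 15471784, was 404 bp wide and ranked 82 on IV. The window beside it had 18 peaks but held the site ranked 6. The densest window, with 61 peaks and 48.7 kb covered, had a strongest peak of rank 16, from 11954965 to 11957762 (q = 6.65e-52).

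At a finer scale the sites came in local concentrations. Of the 174 full windows of 100 kb, 15 held no combined peak, the median was 4 and 7 windows held 10 or more. The densest, from 4400001 to 4500000, held 14 peaks and lay at the left border of the centre. It had 10 peaks in each replicate, the highest count of IV in both, and held the wide sites at 4404740 and 4469591. It was followed by the windows from 9600001 to 9700000 with 12 peaks and from 11000001 to 11100000 with 11. Another 4 windows had 10, starting at 5300001, 8500001, 11200001 and 13300001. Counts of the replicates in these windows had a rho of 0.886. In no case did 3 empty windows follow each other: the longest empty runs were pairs, from 13400001 to 13600000, from 14100001 to 14300000 and from 15100001 to 15300000, all in the right arm, and neither replicate had a peak there. The share of empty windows on IV was 8.62% (exact 95% interval 4.91 to 13.8), against 7.89% on II, 4.38% on III, 11.96% on V and 12.5% on X, and none of the 4 differences passed Fisher's exact test (adjusted p of 0.423 to 0.843). With windows of 50 kb, 26.9% were empty on IV, more than the 17.8% on III (adjusted p = 0.0146, Fisher's exact test) and fewer than the 37.5% on X (adjusted p = 0.0113).

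For the comparison of ends and centre, the outer 25% at each side of the length were called ends and the inner 50% the centre, which on IV runs from 4368595 to 13105783. The centre held 446 of the 708 peaks (63.0%, against 61.5% over all chromosomes), or 51.05 per Mb. On X this share was 53.9%, below that on IV (adjusted p = 0.00868, Fisher's exact test), but the difference was not called in the list of replicate 1 (adjusted p = 0.522) or replicate 2 (0.0539, both Fisher's exact test). II, III and V had 61.5%, 57.9% and 66.2% in the centre and did not pass against IV (adjusted p of 0.113 to 0.605, Fisher's exact test). The left end held 156 peaks, 35.7 per Mb, and the right end 106, 24.3 per Mb. The centre was 1.70 times as dense as the ends together (exact 95% interval 1.46 to 1.99), a difference past the two-sided exact binomial test (p = 4.65e-12). Replicate 1 gave a ratio of 1.58 (p = 6.09e-05) and replicate 2 one of 1.76 (p = 9.79e-09), both by the exact binomial test. Here and below such tests treat peaks as independent, which neighbouring peaks are not, and intervals cover counting error only.

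The 2 ends of IV were unlike each other, with the left one 1.47 times as dense in the combined list (interval 1.14 to 1.90; exact binomial p = 0.00240). The direction was the same in both replicates, with 69 against 57 peaks in replicate 1 (ratio 1.21, exact binomial p = 0.327) and 91 against 67 in replicate 2 (ratio 1.36, p = 0.0669), but neither list passed the test by itself. Among combined peaks found in both replicates the ratio was 1.15 (exact binomial p = 0.555). The lean to the left was then set against II, III, V and X. Of the peaks in the 2 ends, 59.5% lay in the left end on IV, against 27.8% on II, 42.9% on III, 49.8% on V and 39.4% on X. Chromosome I, which was not among those compared, had 108 of its end peaks on the left and 77 on the right (58.4% left). Fisher's exact test, chosen after the values were seen, gave adjusted p of 5.96e-12, 1.27e-04, 0.0324 and 3.67e-05 for these 4 differences. Only the difference from II passed in both replicate lists; without replicate 2 the differences from III, V and X missed the threshold (adjusted p = 0.0508, 0.230 and 0.543), and without replicate 1 that from V did (0.409, all Fisher's exact test).

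**Figure D3:**
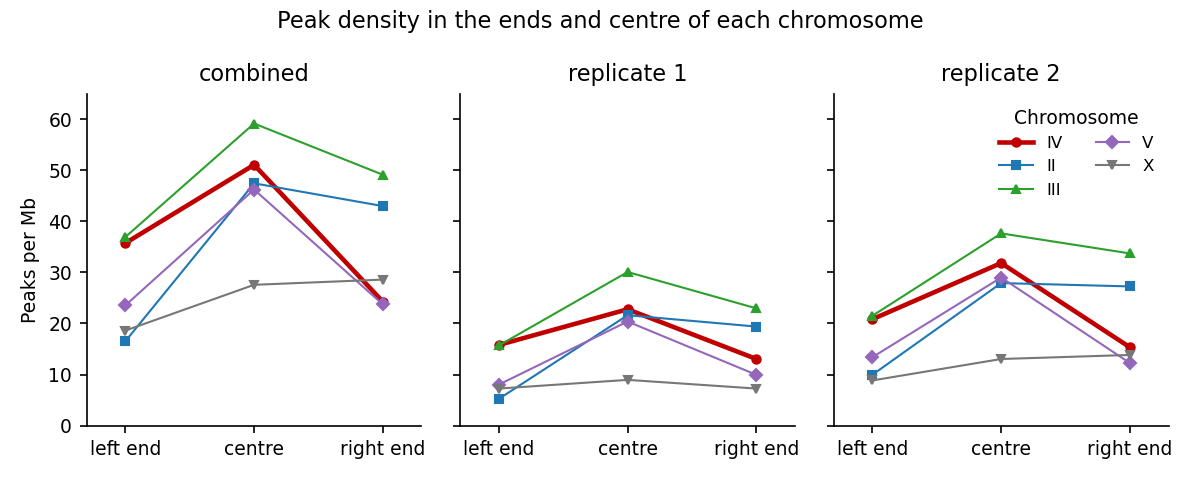
Peaks per Mb in the left end, centre and right end of IV, II, III, V and X, with 1 panel for each list. On IV (thick line) the combined density goes from 35.7 to 51.05 to 24.3 per Mb, while II goes from 16.5 to 47.4 to 42.97.

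Peaks of the right end were more often among the strong ones. Of its 106 combined peaks, 39 were among the strongest 25% of the whole list (36.8%, exact interval 27.6 to 46.7), against 154 of the 602 others on IV (25.6%, interval 22.1 to 29.3; Fisher's exact p = 0.0241). In the list of replicate 1 the same shares were 40.4% and 21.3% (p = 0.00377), and in that of replicate 2 they were 43.3% and 25.2% (p = 0.00455), both by Fisher's exact test. They were found in both replicates in 48 of 106 cases (45.3%) against 217 of 602 (36.05%), a difference that missed the threshold (Fisher's exact p = 0.0814). Peaks wider than 1000 bp made up 19.8% of the right end, 19.3% of the centre and 9.62% of the left end. The difference of the right end from the rest of IV (16.8%) missed the threshold (Fisher's exact p = 0.485). It also missed it in replicate 1 (p = 0.432) and replicate 2 (p = 0.693, both Fisher's exact test). These comparisons were chosen after the values were seen and are not adjusted for that.

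Next, the density of IV was set against that of other chromosomes. In the combined list IV had 40.5 peaks per Mb, II 38.6, III 51.1, V 34.9 and X 25.6. IV was thus less dense than III (ratio 0.793, exact interval 0.714 to 0.882; adjusted p = 3.11e-05, exact binomial test) and denser than V (ratio 1.16, interval 1.04 to 1.29; adjusted p = 0.00666) and X (ratio 1.58, interval 1.41 to 1.79; adjusted p = 4.44e-14). Against II the ratio was 1.05 with an interval from 0.940 to 1.17, and the test was not passed (adjusted p = 0.388, exact binomial). Each of the 3 called differences was also called in both replicate lists. There the ratio to III was 0.753 in replicate 1 and 0.765 in replicate 2, that to V 1.27 and 1.19, and that to X 2.29 and 2.05. Counted per 100 protein-coding genes, IV had 21.6 combined peaks, II 17.1, III 26.6, V 14.6 and X 16.5. On this scale IV was also above II (ratio 1.26, adjusted p = 4.05e-05, exact binomial test).

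Peaks of IV had about the width of those on other autosomes. The median of 518.5 bp stood beside 546 bp on II, 500 bp on III, 505.5 bp on V and 672 bp on X. Peaks wider than 1000 bp made up 122 of 708 on IV (17.2%, exact interval 14.5 to 20.2; 19.8% over all chromosomes), against 29.5% on X. This difference passed Fisher's exact test (adjusted p = 5.67e-06), also in both replicate lists. The shares of II, III and V were 20.03%, 17.6% and 19.7%, and no difference from IV passed (adjusted p of 0.331 to 0.888, Fisher's exact test). Among peaks wider than 2000 bp, the difference from X was not called either, with 5.93% on IV and 7.54% on X (adjusted p = 0.785, Fisher's exact test).

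None of the 10 strongest peaks of the combined list lay on IV, and none lay on III, whose strongest peak ranked 23. IV held 9 of the 50 strongest, 20 of the 100 strongest and 105 of the 500 strongest peaks. These counts stood beside its 19.1% of the whole list. The strongest 25% of the list (925 of 3702 peaks) included 27.3% of the peaks on IV, 27.7% on II, 27.2% on III, 21.6% on V and 21.3% on X. IV was above V and X by Fisher's exact test (adjusted p = 0.0436 for both) in the combined list only. In the list of replicate 1 the shares of IV, V and X were 24.6%, 24.1% and 24.5%, and in that of replicate 2 they were 27.98%, 24.7% and 19.5%, with no call in either.

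Neighbouring sites on IV were a median of 9349 bp apart, with the middle 50% of the 707 gaps between 1935 and 30478 bp. The shortest gap was 202 bp. Gaps under 1000 bp numbered 107 (15.1%, exact interval 12.6 to 17.99; 14.8% over all chromosomes), against 15.99% on II, 17.2% on III, 14.4% on V and 11.8% on X, and no difference passed Fisher's exact test (adjusted p of 0.464 to 0.710). At limits of 500 and 2000 bp the share on IV was above that on X (9.19% against 4.89% and 25.6% against 18.4%; adjusted p = 0.0328 and 0.0201, Fisher's exact test). These 2 limits were applied to the combined list only. At 1000 bp the difference from X was not called in replicate 1 (adjusted p = 0.440) or replicate 2 (0.0859, both Fisher's exact test). IV also had 1.58 times the peak density of X, and whether the shares differ beyond that was not tested. The 5 widest gaps all lay in the right end. They were 345 kb from 15039871, 255 kb from 14071380, 242 kb from 13396848, 182 kb from 15984515 and 178 kb from 16203696, and neither replicate had a peak inside any of them. The last pair of gaps flanked a short stretch that opens with the site ranked 6, from 16166445 to 16171652. In all, 33 of the 707 gaps were over 100 kb, 12 of them in the right end, 13 in the centre and 8 in the left end. Such gaps numbered 27 of 588 on II, 43 of 729 on V and 48 of 450 on X. III had fewer than IV among its 702 gaps. The widest gap was 345271 bp on IV, 391827 bp on II, 176639 bp on III, 311047 bp on V and 281780 bp on X. Wide gaps are thus not particular to IV, and these differences were not tested.

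**Figure D4:**
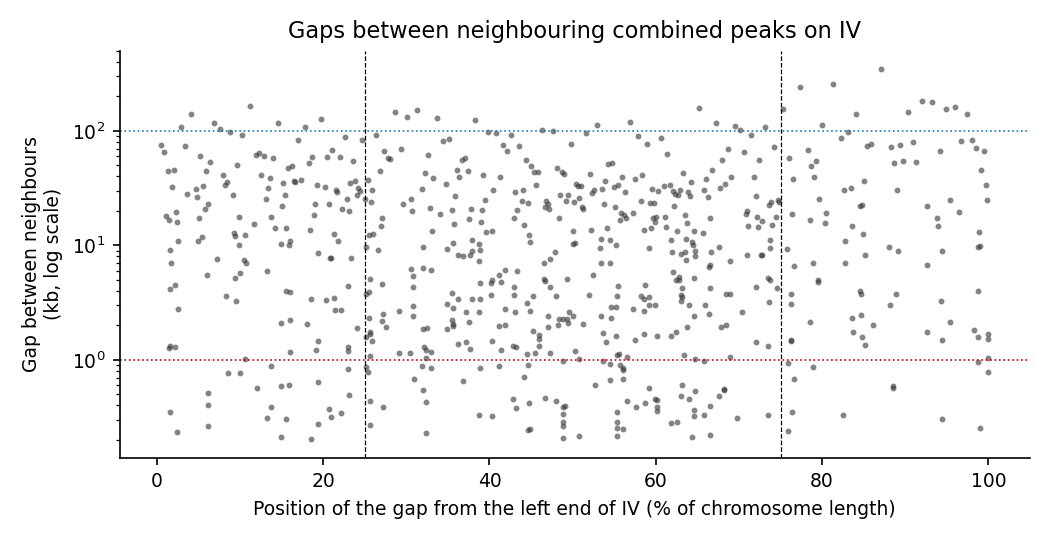
Length of each of the 707 gaps between neighbouring combined peaks on IV (y, kb, log scale) against its position as a percent of chromosome length; dashed lines mark 25% and 75% and dotted lines 1 kb and 100 kb. The 5 widest gaps, 178 to 345 kb, all lie to the right of the 75% line.

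When peaks with gaps under 1000 bp were joined, the 708 peaks of IV became 601 sites. Of these, 81 were runs of 2 or more peaks and 17 were runs of 3 or more, which held 60 peaks. Runs of 3 or more numbered 17 on II, 23 on III, 16 on V and 8 on X. They held 54 of 589 peaks on II, 74 of 703 on III, 48 of 730 on V and 26 of 451 on X. The longest run, from 8525430 to 8539977, had 7 peaks over 14.5 kb, while the longest runs on II, III, V and X had 4, 5, 3 and 4. It contained the site ranked 2 on IV and, further right, a peak of 3898 bp from 8534795 to 8538692 that ranked 20. The 5 other peaks of the run ranked between 223 and 454. Replicate 2 had 7 peaks over the same stretch and replicate 1 had 6, with different borders. Those of replicate 1 did not form a single run at this limit, and the longest run on IV in its list had 4 peaks. Runs of 5 followed from 9669702 to 9678072 and from 9797402 to 9806629, also in the centre. A run of 3 weak peaks from 5580525 to 5583600 (strongest q = 8.17e-06) had no peak in either replicate.

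Support in the replicates was then counted, a combined peak being found in a replicate when they overlapped by 1 bp or more. Of the 708 peaks on IV, 265 were found in both replicates (37.4%, exact interval 33.9 to 41.1), 38 in replicate 1 alone, 144 in replicate 2 alone and 261 in neither (36.9%, interval 33.3 to 40.5). Over all chromosomes these shares were 35.0% for both and 40.1% for neither. The share found in both was above that on X (25.7%; adjusted p = 1.57e-04, Fisher's exact test), while the shares on II, III and V were 38.2%, 40.8% and 34.8% and did not pass (adjusted p of 0.419 to 0.818). The share found in neither was below that on X (49.0%; adjusted p = 2.15e-04) and also did not pass against II, III and V (37.4%, 34.1% and 39.2%; adjusted p of 0.513 to 0.863, Fisher's exact test). Among the stronger 50% of all combined peaks this second difference from X was no longer called (adjusted p = 0.437, Fisher's exact test).

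Support fell steeply with strength. The peaks of IV were ranked by q-value and cut into 4 bins of 177. In the strongest bin 171 were found in both replicates (96.6%), and in the next bins 46.3%, 6.21% and 0.565%. X had 85.8% in its strongest bin and 15.04% in the next one, but the q-values there were weaker, with the second bin of X ending at 5.43e-07 and that of IV at 4.11e-08. Peaks found in both replicates on IV had a median width of 689 bp and a median q-value of 2.43e-16, against 413 bp and 1.92e-05 for those found in neither. Among peaks wider than 1000 bp 66.4% were found in both, and among the others 31.4%. A wide peak meets the rule of 1 bp more easily, so part of this difference is built in. The peak from 5658912 to 5663842 counted as found in both, although the replicates called only 897 and 893 bp there. The series holds only 2 ChIP libraries, so the combined list is not independent of the replicate lists. Support is therefore a description and no independent replication.

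**Figure D5:**
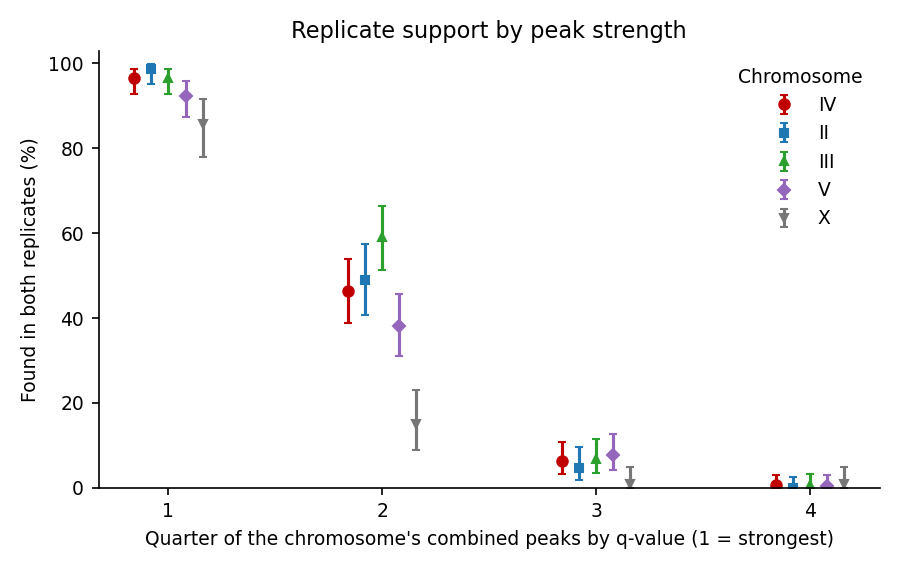
Percent of combined peaks that both replicates share (y, %, with exact 95% intervals) in each of 4 bins of a chromosome's peaks by q-value, from strongest (1) to weakest (4), for IV, II, III, V and X. On IV the share goes from 96.6% to 46.3%, 6.21% and 0.565%.

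The replicate lists themselves shared most strong sites on IV. Of the 325 peaks of replicate 1, 286 overlapped one in replicate 2 (88.0%, exact interval 83.96 to 91.3). Of the 436 peaks of replicate 2, 281 overlapped one of replicate 1 (64.4%, interval 59.8 to 68.9). Over all chromosomes the 2 shares were 88.9% and 62.9%. The 262 pairs that matched 1 to 1 had starts a median of 45 bp apart and ends 41.5 bp apart. Spearman's rho between replicates was 0.734 for the q-values of these pairs and 0.791 for their widths, over peaks that share their libraries. Nearly all replicate peaks on IV were also in the combined list, with exceptions of 1 in replicate 1 and 4 in replicate 2. Over all chromosomes the exceptions were 2 of 1550 and 18 of 2142.

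Some peaks of IV were seen in 1 replicate only. Replicate 1 had 39 such peaks among 325, beside 172 among 1550 over all chromosomes. The 39 were led by the one from 2408429 to 2408882 (q = 7.56e-08, rank 142 of 325 on IV), then from 3384397 to 3385003 and from 11182615 to 11183378. Replicate 2 had 155 among 436, beside 794 among 2142 over all chromosomes. The 155 were led by the peak from 6575989 to 6577160 (q = 1.74e-13, rank 73 of 436), then from 8949074 to 8950053 and from 14767691 to 14768010. All 6 were in the combined list, where the first 2 of replicate 2 ranked 64 and 80 on IV (q = 1.09e-24 and 1.07e-21) and the other 4 between 184 and 347. The strongest combined peak found in neither replicate lay from 13250196 to 13252821, was 2626 bp wide with q = 4.21e-19 and ranked 101 on IV. The next ones, from 8525430 to 8526968 (q = 1.22e-11) and from 9998495 to 9999206 (q = 5.24e-11), ranked 223 and 236, and the first of them opens the run of 7 peaks. Absence from a list says only that no peak was called, at a depth that is unknown.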

How the data were processed

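The 3 deposited lists (ChIP replicate 1, ChIP replicate 2, combined) hold 1550, 2142 and 3702 intervals with a q-value each, per the file headers and attributes, called by the authors with PeakSeq in WS180. The PeakSeq version, aligner, thresholds and inputs, and how the combined list came about, are not stated in the sources used here. Input libraries were not analysed here. Intervals were used without a filter, with Python 3.11.15, numpy 2.4.6, scipy 1.17.1 and matplotlib 3.10.9. Overlaps equalled those of bedtools 2.31.1 in 4 of 4 counts on IV, and the counting steps were tested on simulated data. Chromosome length was the highest peak end in any list, which is slightly short, and peaks were placed in windows and zones by midpoint. Densities were compared by exact binomial tests and shares by Fisher's exact test, two-sided, with Benjamini-Hochberg adjustment over the 4 chromosomes compared (II, III, V, X) and a threshold of 0.05. Shares have Clopper-Pearson 95% intervals. The members, comparisons and lists were chosen with earlier results of these data known. Named sites were the 10 strongest and 10 widest on IV, the strongest of each 1 Mb window, the densest windows, widest gaps and longest runs, and the 3 strongest found in 1 replicate or in neither; the text gives those that carry a result. Alternatives changed the list, the overlap rule, thresholds, window grids and zone borders.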

Additional observations from a re-analysis of the deposited data

How the results depend on the processing

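Over 39 results, 192 alternatives were computed, of which 133 left both direction and call as they were and 23 turned the direction, all in comparisons that had not passed the test. Values below are IV minus the other chromosome in percentage points unless called a ratio, and leaving out a replicate means using the list of the other alone. No paired analysis was possible because replicate numbers link ChIP libraries only to inputs, for which no list was analysed here. The cause of these changes was not tested, and the depth, which limits which weak sites are called, is unknown.

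Per protein-coding gene the density ratio to II became 1.26, 1.32 (replicate 1) and 1.29 (replicate 2), past the test. The left to right ratio on IV was no longer called among peaks found in both replicates (1.15), in the stronger 50% of the list (1.13) or without a replicate (1.21 to 1.36). The central share against X lost its call among peaks found in both (6.82), in the stronger 50% (9.29) and without a replicate (5.99 to 10.3). Against II it turned to -2.42 among peaks found in both, -0.417 with 3 equal zones and -2.48 to 3.76 without a replicate, and against III it passed with 3 equal zones (7.78).

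The share found in both against II became 1.05 with midpoints within 200 bp. Without a replicate, the share counted was that found in the remaining list, and its difference from II was -0.975 to 0.691. The share found in neither against II became 0.0707 with 50% overlap, 0.266 with midpoints and 0.947 in the stronger 50%. Against X it was -3.52 in the stronger 50%, not called. Without a replicate, the share not found is the complement of the share found in the remaining list. Its differences from II, -0.691 to 0.975, are thus the same tests with the sign turned. Both forms are counted among the alternatives above. Beyond 2000 bp the wide share was 0.811 against III and -1.61 against X, and at 1000 bp without a replicate it was -2.52 to 3.06 against III. For the strongest 10% the differences from II, III, V and X were 0.292, -0.222, 2.25 and 2.29, and for the strongest 25% without a replicate -2.80 to 2.07, -1.56 to 2.37, 0.511 to 3.27 and 0.140 to 8.45, none called.

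Gaps under 500 bp gave 1.03 against II and 4.30 against X, and under 2000 bp 1.79 and 7.16, both called for X. At the limit of 1000 bp, leaving out a replicate gave -1.44 to 1.26 against II, -1.32 to 1.31 against III and -3.21 to 3.24 against V. Empty windows against II gave -1.91 with a shifted grid, -0.607 at 50 kb and, at 100 kb, -2.34 to 1.20 without a replicate. At 50 kb the differences from III (9.12) and X (-10.6) passed, and so did that from X at 100 kb without a replicate (-24.1 to -18.5). The variance over the mean of 1 Mb windows on IV was 2.32 to 3.33 without a replicate, where the mean counts were also lower.

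The left share of end peaks, added after seeing the data, lost its call among peaks found in both against III (13.0), V (6.56) and X (10.0), and in the stronger 50% against V (3.83) and X (10.3). Without a replicate it was 14.2 to 18.6 against III, 5.36 to 10.1 against V and 4.76 to 18.6 against X. The gene denominator with replicate lists and the comparison of the right end with the rest of IV were also added after seeing the data.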
